A study of Rattus norvegicus with 6 samples.

Results

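Cytosolic ribosomal protein genes encode the proteins of the large and small subunits of the ribosome, the particle that translates mRNA in the cytoplasm. They were taken from the gene symbols of the rat count tables by a rule. A symbol was a member if it was Rpl or Rps followed by a number, an optional letter and an optional final digit. Copies such as Rpl22l1 and Rps12l3 were thus included, and Rplp0, Rplp1, Rplp2 and Rpsa were added. Rps6k kinases and symbols ending in a pseudogene mark were left out. The rule found 95 of 33294 gene rows, 56 of the large and 39 of the small subunit. RNA was measured in pituitary glands of 3 male Sprague-Dawley rats, aged 11 weeks, whose dams had carried an osmotic pump with nicotine tartrate (6 mg/kg per day) in pregnancy, and of 3 male rats of the same strain and age whose dams had carried a saline pump. The offspring themselves were given neither. The dam and litter of each rat are not given, so the p-values measure the spread between these rats.

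Ribosomal proteins are made in amounts that match one another, since each is needed about equally in the finished particle. Their mRNAs are among the most abundant of the cell, are short and stable, and mostly begin with a 5′ terminal oligopyrimidine tract, a run of C and T bases (C and U in RNA) at the transcription start through which growth signals acting on mTORC1 and the La-related protein Larp1 control translation. In the pituitary, secretory cells translate large amounts of hormone mRNA on these ribosomes.

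Sequence around the annotated start is shown for 10 members that the results turn on, chosen after their values were seen: 5 that were far lower in 1 nicotine library than elsewhere (Rps14, Rpl13a, Rps7, Rpl41 and Rpl22l1), a pair that was also low in 1 control library (Rpl17 and Rpl31), and 3 that were low in neither (Rpl37, Rpl19 and Rplp2). The windows hold 15 bases before and 15 after the start, from RefSeq on GRCr8, while the counts were made on rn7. They read 5′ to 3′ on the gene's strand, and the capitals mark the longest run of C and T bases, the first such run where several tie.
Rps14, chr18:56498245-56498274, plus strand: cccttccgTCTCTCTCTTTCCggtggagga
Rpl13a, chr1:104748899-104748928, minus strand: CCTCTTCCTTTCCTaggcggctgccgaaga
Rps7, chr6:50999431-50999460, minus strand: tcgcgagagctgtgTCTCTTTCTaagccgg
Rpl41, chr7:1563483-1563512, minus strand: ggcggCTCggaagtgacgacaccaagcacg
Rpl22l1, chr2:113683181-113683210, plus strand: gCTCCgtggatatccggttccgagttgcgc
Rpl17, chr18:70856261-70856290, plus strand: tagccttcgcgCTTCCTCTTCCTgttagcg
Rpl31, chr9:49143096-49143125, plus strand: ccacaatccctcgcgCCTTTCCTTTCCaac
Rpl37, chr2:55942930-55942959, plus strand: tggtaggcgtaCTTTCTCTTCCggtctctt
Rpl19, chr10:83519049-83519078, plus strand: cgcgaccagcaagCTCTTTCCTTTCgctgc
Rplp2, chr1:205975906-205975935, plus strand: CCTTTCgccgccggacgccgccgaggtcgc

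The runs in Rps14, Rpl13a, Rpl17, Rpl31, Rpl37 and Rpl19 were 11 to 14 bases long, so members that were low in a library and members that were not both had long runs in the window. The runs of Rpl13a and Rplp2 began at the window's edge and may be cut there. Those of Rpl41, Rpl22l1 and Rplp2 were 3, 4 and 6 bases. The run of Rpl13a and these short runs ended before the annotated start. Of the 95 members, 71 had a start window in RefSeq, on 19 chromosomes. A run of at least 8 C or T bases lay within the 30 bases of 41 of these 71 (57.7%), against 11.4% of the 33469 windows over all genes. A run of at least 5 that covered the start itself was found in 53.5% of the members and 12% of all windows. The letters CTTTCC, on the gene's strand, were in 21.1% of the members' windows and 1.24% of all. A longer window held 300 bases, 250 before and 50 after the start. In it CCGGAAG on either strand was in 29.6% of the members and 8.75% of all windows. AAGATGGC on either strand was in 7.04% and 3.17%, and TATAAA on the gene's strand in 9.86% and 8.8%. These matches describe the letters of the windows and are not evidence of a factor's binding.

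Totals ranged from 28318383 counts in control replicate 1 to 85977002 in nicotine replicate 2, the deepest library. The other 4 had 37095718 to 62932317. Levels are given as CPM, each library's counts scaled to a common total after correction by TMM (a factor for unequal composition). They are not divided by transcript length, so a CPM compares a gene between libraries and not 1 gene with another. A list of library sizes in the study's supplement had the larger sizes in the other group than these files do, and the groups used here are those of the sample labels. If the labels of the groups had been exchanged, each direction given here would be the opposite. Nicotine replicate 2 stood apart from the other libraries. Growth hormone (Gh1) held 12.4% of its counts, against 5.34% to 8.32% elsewhere. The summed level of 8 of the 13 mitochondrially encoded mRNAs was 36605 CPM there. It was 37685 CPM in control replicate 3 and 71446 to 90530 in the other 4. The 6 posterior lobe markers, none of them at 0 in all libraries, summed to 133 to 333 CPM after nicotine and 60.6 to 151 in controls, with the highest value in nicotine replicate 2. The 8 erythroid markers, likewise all detected, summed to 3275 to 10383 CPM after nicotine and 8618 to 17314 in controls, with the lowest value in the same library. The 4 small structural RNAs with a row of 8 listed, 1 of them at 0 everywhere, summed to 540 CPM in nicotine replicate 2 and 617 to 1268 CPM in the others. Of the 8 markers each of other cell types, all detected, those of endothelial cells summed to 194 to 323 CPM after nicotine and 161 to 221 in controls, of smooth muscle to 57.2 to 218 and 48.4 to 63.3, of neutrophils to 34.1 to 45.5 and 22.3 to 154, of lymphocytes to 8.30 to 10.9 and 12.6 to 24.6, and of macrophages to 128 to 269 and 215 to 294. The protocol on file describes testes, but the 10 testis germ cell markers summed to at most 3.36 CPM, and 3 of them were at 0 everywhere, while the 10 hormone cell markers summed to at least 115610 CPM. In bulk RNA, fewer cells of a type and less RNA per cell cannot be told apart.

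Ribosomal protein genes held 9.49%, 5.60% and 8.98% of all counts in nicotine replicates 1, 2 and 3, and 9.28%, 9.54% and 8.66% in control replicates 1, 2 and 3. Of the 6 libraries, 5 thus lay within 8.66% to 9.54%, and nicotine replicate 2 lay far below them. The mean was 8.02% ± 2.11 (SD, n = 3) after nicotine and 9.16% ± 0.455 (SD, n = 3) in controls. The difference of -1.14 percentage points was smaller than the spread among the nicotine rats, with an exact two-sided permutation p of 0.6, where the smallest p this design allows is 0.1. Without nicotine replicate 2 the nicotine mean was 9.23%. Both subunits shared the pattern. Large subunit genes held 3.09% of the counts in that library and 4.71% to 5.03% in the other 5, and small subunit genes 2.51% and 3.95% to 4.52%. The ratio of large to small was 1.23 in nicotine replicate 2, 1.19 in control replicate 3 and 1.11 to 1.14 in the other 4.

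Of the 95 members, 89 passed the filter on low counts (52 of the large and 37 of the small subunit). The other 6 never passed 15 counts in a library. Among them were Rpl3l, which muscle uses in place of Rpl3, Rpl30l1, Rps19l1, Rpl31l1 and Rpl34l1, which was at 0 in all libraries. Mean levels of the 89 ran from 0.485 CPM for Rpl31l2 to 7553 CPM for Rps14, and 78 were at 100 CPM or more. The 6 members with the highest CPM, Rps14, Rpl13a, Rpl41, Rpl4, Rps6 and Rps7, made up 32.0% of the members' counts in the library where they held most and 18.9% in nicotine replicate 2, where they held least.

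In the comparison of the groups, 0 of the 89 members passed both thresholds that the study used, an adjusted p below 0.1 and a change of more than 1.5 times, in edgeR's quasi-likelihood test, and 0% of the 17292 genes tested did. The smallest adjusted p of a member was 0.793. At an unadjusted p under 0.05, 1 member was higher after nicotine (1.12%, against 3.13% of all genes) and 0 were lower (against 3.01%). DESeq2 called 0 of 94 members, against 0.249% of the 24539 genes it tested, and had 1 member at an unadjusted p under 0.05, against 4.7% of those genes. The members' standard errors had a median of 0.24 on the log2 scale.

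Rpl37, a small zinc-binding protein of the large subunit, was the member with an unadjusted p under 0.05. Its level was 71.5, 70.8 and 75.6 CPM in nicotine replicates 1, 2 and 3, and 50.3, 59.3 and 57.7 CPM in controls. All 3 nicotine libraries were above all 3 control libraries, and nicotine replicate 2 lay among its group. The log2 fold change was 0.38 (SE 0.15, unadjusted p = 0.0245 and adjusted p = 0.793 from edgeR). It did not pass the correction. With 1 library left out at a time its log2 fold change stayed between 0.31 and 0.43, and the unadjusted p rose over 0.05 without nicotine replicate 3 or without control replicate 1. Rpl37 was one of the lower rows in CPM among the common members, at rank 80 of the 89.

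The other members with the smallest p on the higher side were Rpl29, Rpl36, Rpl7a and Rpl19, none with an unadjusted p under 0.05. Rpl19 lay at 966, 1030 and 1077 CPM after nicotine and 953, 960 and 932 CPM in controls. The groups did not overlap, but the difference was 0.11 on the log2 scale with an SE of 0.19. Rpl29 and Rpl36 both had a log2 fold change of 0.22, with control replicate 3 as their lowest library, at 230 and 218 CPM against at least 337 and 359 in the other 5. Without that library the log2 fold change of Rpl36 was -0.055. Rpl7a, of the large subunit, was at 187, 235 and 214 CPM after nicotine and 207, 207 and 170 CPM in controls, so the groups overlapped.

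On the lower side the smallest p belonged to Rpl22l2, Rpl39l, Rps12l3, Rpl22l1 and Rpl9, with unadjusted p between 0.101 and 0.181 in edgeR. Rpl22l2 and Rps12l3 were rare, at 0.152 to 0.775 and 0.552 to 1.22 CPM. Rpl39l, a copy of the exit tunnel protein Rpl39 that is abundant in male germ cells, was at 278, 121 and 286 CPM after nicotine and 333, 322 and 275 CPM in controls. Its low value was in nicotine replicate 2, and without that library the log2 fold change was -0.15 in place of -0.44. Rpl9 lay at 1344, 639 and 1310 CPM after nicotine and at 1390, 1568 and 1422 CPM in controls, with groups that did not overlap. Its log2 fold change was -0.41 (SE 0.29), and -0.15 without nicotine replicate 2.

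Groups that did not overlap were found for 2 members higher after nicotine (Rpl37 and Rpl19) and 4 lower (Rpl13a, Rpl7, Rpl9 and Rpl22l2). The shares over all genes were 6.12% and 5.14%, so the 89 members had no more such cases than genes at large.

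**Figure D1:**
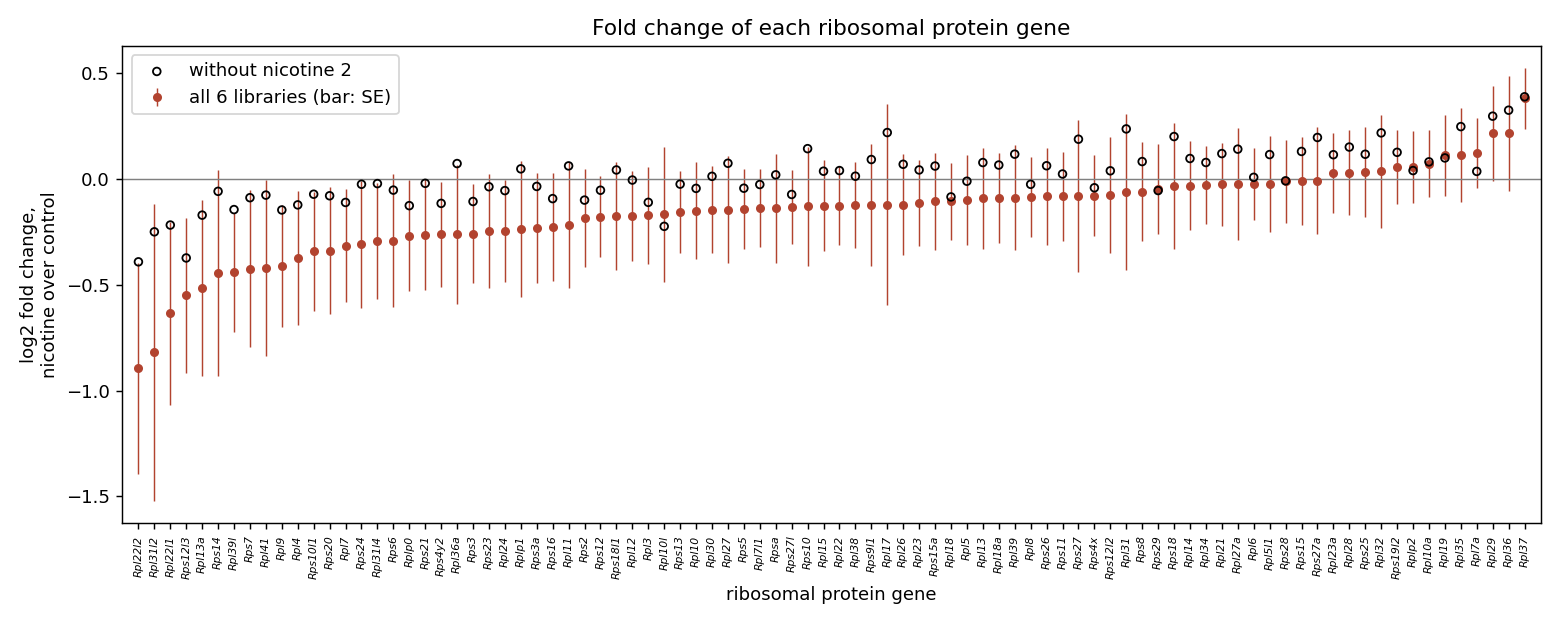
Log2 fold change of nicotine over control (vertical axis) of 88 of the 89 tested ribosomal protein genes (horizontal axis, sorted), from edgeR. Filled points with bars give the value and SE from all 6 libraries and open circles the value without nicotine replicate 2. Most filled points lie below 0, while the open circles lie on both sides of it.

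Across the members, 76 of 89 had a fitted level below the control level, against 49% of all genes tested. The median log2 fold change was -0.13, against 0.007 over all genes. With all libraries thinned to the smallest total it was also -0.13, against 0.0046, and 74 of 89 members were lower. Scaled by library sizes alone, 66 of 89 were below the control level, but the median over all genes rose to 0.057. The members' median minus that over all genes was -0.15 in that fit, against -0.13 in the main one. With sample quality weights in voom 58 of 89 were below the control level. The medians were then -0.043 for members and -0.0073 over all genes. This lean rested largely on nicotine replicate 2. Without it the filter kept 90 members, and 42 of them were lower, against 53% of all genes, and the median was 0.016. In that fit 0 members were called, against 0.00572% of all genes, and Rpl37 alone had an unadjusted p under 0.05, so 1 member was higher and 0 lower, where 3.88% and 2.78% of all genes were. The median was -0.22 without control replicate 3, -0.20 without nicotine replicate 1 and -0.26 without nicotine replicate 3. With nicotine replicate 2 and control replicate 3 both left out, an alternative chosen after the data were seen, it was -0.049. The median over all genes was -0.0092 in that fit, and 54 of 89 members were lower.

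Nicotine replicate 2 was the lowest of the 6 libraries for 73 of the 89 members, against 26.8% of all genes. The median member lay 0.58 below the median of the other 5 libraries on the log2 scale, and 23 members were under 0.5 of that median, against 7.19% of all genes. Among genes at 100 CPM or more, 20 of 78 members and 7.08% of 1526 genes were. Control replicate 3 was lowest for 10 members, against 14.7% of all genes. There 3 members were under 0.5 of the other libraries' median, a count whose share over all genes is not given. With nicotine replicate 2 set aside, however, control replicate 3 was the lowest of the remaining 5 for 57 of the 89 members, against 22.5% of all genes. These were the 2 lowest libraries for 53 of the 89, against 11.5%. The median member lay 0.15 below the other libraries' median in control replicate 3 on the log2 scale. The part of the higher Gh1 and posterior lobe markers and of the lower erythroid markers and small structural RNA of nicotine replicate 2 in these levels was not tested.

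**Figure D2:**
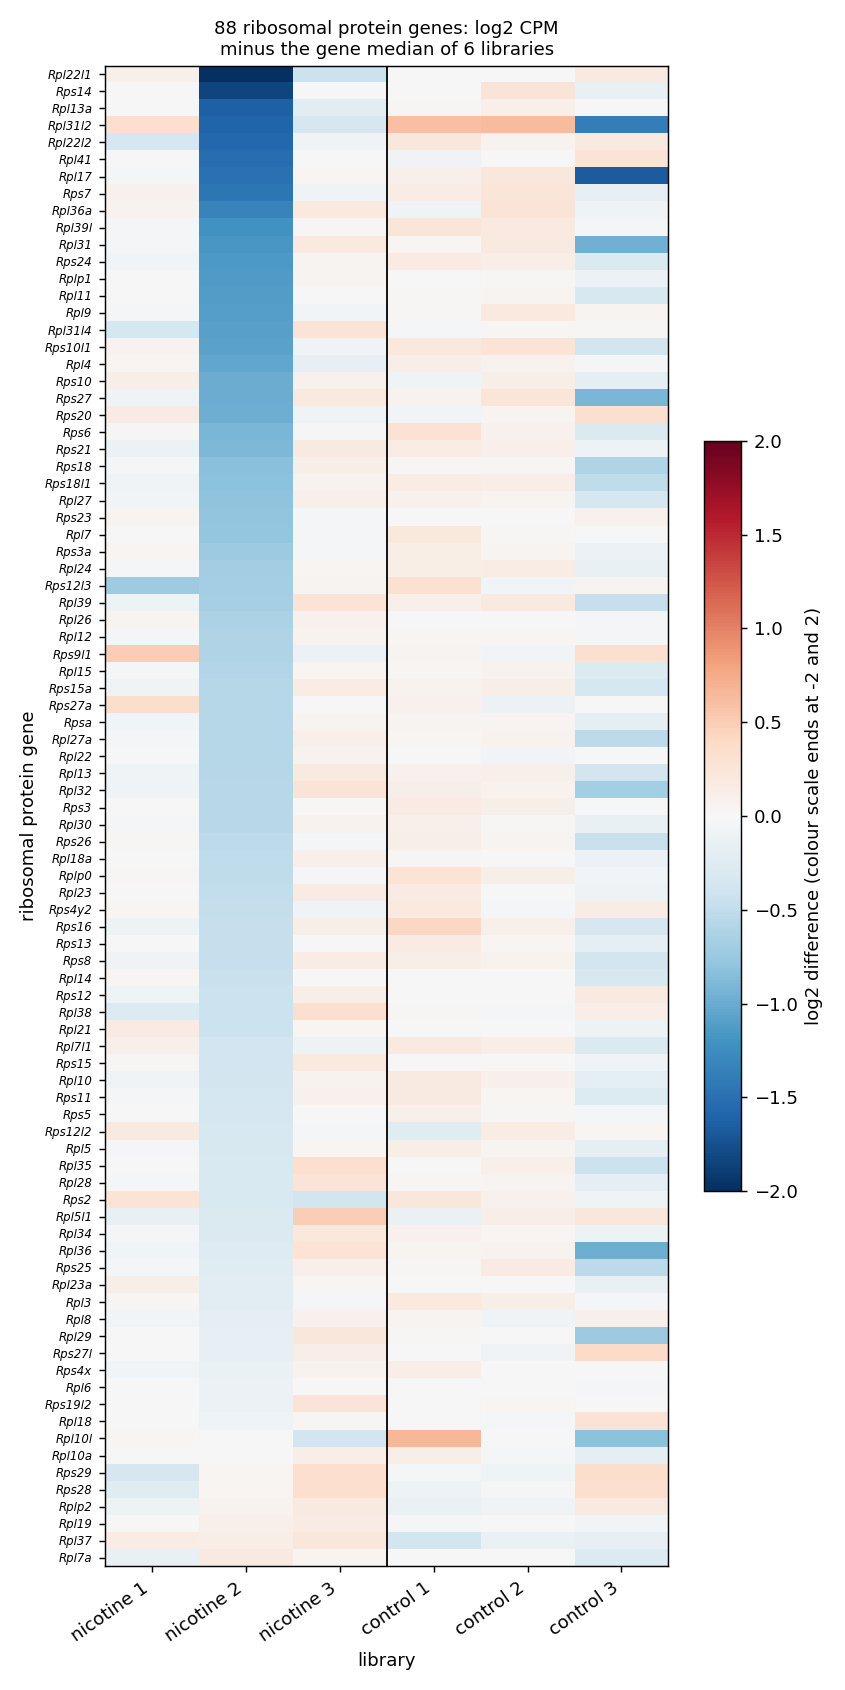
Log2 CPM of 88 of the 89 tested ribosomal protein genes (rows) in each library (columns), minus the gene's median over the 6 libraries. The rows are sorted by nicotine replicate 2, the column that is blue (lower) over most of its length, and at the bottom are the 7 genes that were above the median of the other 5 libraries there.

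The level in that library, relative to the others, was uneven across members. Rps14, a small subunit protein of the platform next to the mRNA path, was at 8461, 2354 and 8370 CPM after nicotine and 8485, 10019 and 7628 CPM in controls. Nicotine replicate 2 was at 0.278 of the median of the other 5 libraries, which were near one another. Rpl13a, a large subunit protein also known for silencing inflammatory mRNAs when phosphorylated, was at 5899, 1920 and 5043 CPM after nicotine and 6029, 6390 and 5950 CPM in controls. The 3 control libraries had an SD of 235 CPM, while the nicotine libraries had one of 2094. Rps7 and Rpl41, the shortest of the ribosomal proteins, were at 938 and 1777 CPM in nicotine replicate 2 and at no less than 2287 and 4864 CPM elsewhere. Rpl36a was at 219 CPM there and at no less than 524 CPM in the other 5.

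Other members varied little. Rpl6 was at 577, 528 and 576 CPM after nicotine and 574, 573 and 563 CPM in controls, a coefficient of variation of 3.32%, and 0.990% without nicotine replicate 2. Rps4x, which is encoded on the X chromosome, was at 914, 862 and 992 CPM after nicotine and at 1034, 943 and 948 CPM in controls. Rpl37, Rpl7a, Rplp2, Rpl19, Rps28, Rps29 and Rpl10a were above the median of the other 5 libraries in nicotine replicate 2, at 1.01 to 1.19 times that median. The median coefficient of variation over 6 libraries was 18.9% for members and 19.6% for all genes. Without nicotine replicate 2 it was 10.2% and 16.1%.

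**Figure D3:**
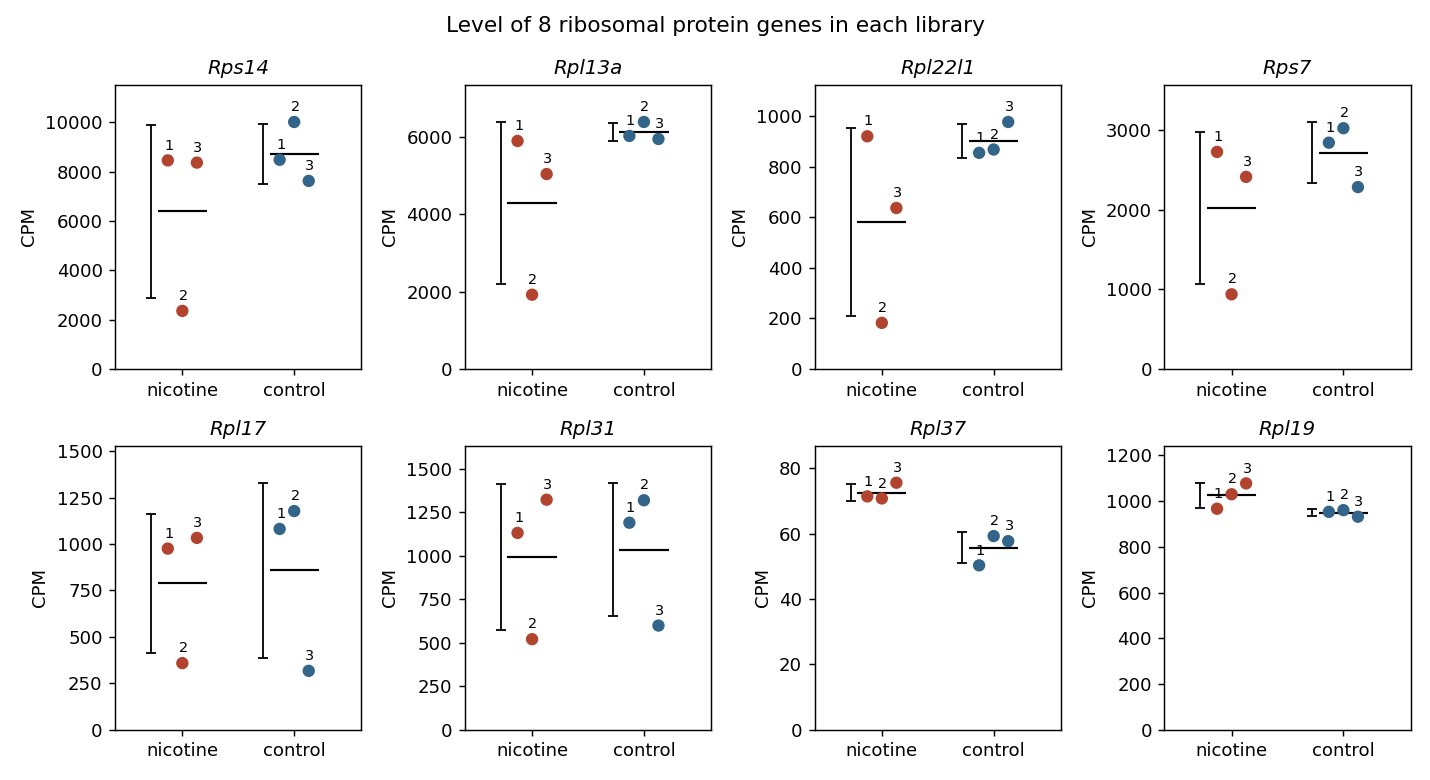
Level in CPM (vertical axes, from 0) of 8 ribosomal protein genes in the 3 nicotine and 3 control libraries, numbered by replicate, with the group mean (line) and SD (bar). Rps14, Rpl13a, Rpl22l1 and Rps7 are lowest in nicotine 2, Rpl17 and Rpl31 are low in nicotine 2 and control 3, and Rpl37 and Rpl19 are low in neither.

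Nicotine replicate 2 and control replicate 3 were the lowest libraries of most members, and for a few the distance was large in both. Rpl17, a large subunit protein at the exit tunnel, was at 975, 358 and 1033 CPM after nicotine and 1081, 1177 and 317 CPM in controls. The low libraries, nicotine replicate 2 and control replicate 3, were at 0.347 and 0.307 of the median of the other 5 libraries. Rpl31, which also lies at the tunnel exit, was at 1132, 521 and 1323 CPM after nicotine and 1191, 1320 and 599 CPM in controls. Rps27 had the same shape, at 718 CPM in nicotine replicate 2, 753 CPM in control replicate 3 and no less than 1364 CPM elsewhere. Rpl36 and Rpl29, in contrast, were lower in control replicate 3 than in nicotine replicate 2, and Rpl41 and Rpl22l1 were low in nicotine replicate 2 and above the other libraries' median in control replicate 3. The same libraries had the lowest mitochondrially encoded mRNA, and its part in these levels was not tested.

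**Figure D4:**
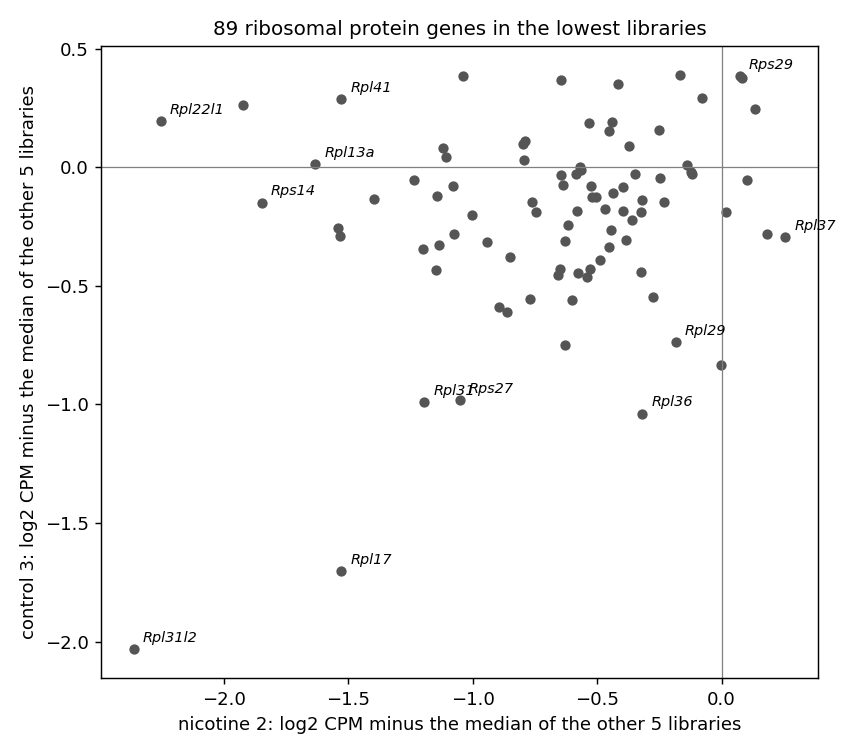
Distance of each of 89 ribosomal protein genes from the median of the other 5 libraries, on the log2 CPM scale, in nicotine replicate 2 (horizontal axis) and control replicate 3 (vertical axis). Points spread to the left over a range of more than 2 units, Rpl17 and Rpl31 lie low on both axes, and Rpl22l1, Rps14 and Rpl13a are low on the horizontal axis only.

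Of the 23 members that were under 0.5 of the other libraries' median in nicotine replicate 2, 18 had a start window in RefSeq, and 49 of the other tested members had one. A run of at least 8 C or T bases was in 66.7% of the former and 59.2% of the latter. A run of at least 5 over the start was in 72.2% and 51%, CTTTCC in 38.9% and 16.3%, and CTTCC in 38.9% and 22.4%. CCGGAAG was in 38.9% and 28.6%, and AAGATGGC in 11.1% and 4.08%. The order was the other way for a run of at least 5 within the 30 bases (77.8% and 87.8%) and for TATAAA (5.56% and 10.2%). These shares compare few genes and were not tested.

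Paralog pairs were set side by side as counts of the copy per 100 counts of the parent. Rpl22l1, which stands in for the RNA-binding protein Rpl22, had 489, 144 and 324 counts per 100 of Rpl22 after nicotine and 451, 480 and 520 in controls. The ratio was thus lower in nicotine replicates 2 and 3 than in any control. Rpl22l1 itself was at 920, 182 and 636 CPM after nicotine and 854, 867 and 976 CPM in controls, a log2 fold change of -0.63 (SE 0.43, adjusted p = 0.832 from edgeR) and -0.22 without nicotine replicate 2. Rpl22 was at 188, 127 and 197 CPM after nicotine and 189, 181 and 188 CPM in controls.

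Rpl39l had 132, 85.0 and 104 counts per 100 of Rpl39 after nicotine and 137, 124 and 166 in controls, so the groups overlapped. The ratio of Rps27l, a copy induced by p53, to Rps27 was 2.16, 3.69 and 1.96 per 100 after nicotine and 2.00, 1.67 and 5.13 in controls. Its high values are those of the libraries in which Rps27 was low, and Rps27l itself varied from 26.5 to 38.6 CPM. Rpl7l1 was at 3.47 to 5.62 counts per 100 of Rpl7, and Rpl10l, a copy of Rpl10 that male germ cells use, at 0.451 to 0.998 per 100 of Rpl10. Rps4y2 was at 0.295 to 0.418 counts per 100 of Rps4x and Rpl3l at no more than 0.00276 per 100 of Rpl3. Rpl26 had no copy row to compare, at 734 to 1204 CPM. Reads shared by near-identical copies can be placed on either, so these ratios depend on how such reads were counted.

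The stalk of the large subunit, which recruits elongation factors, is built from Rplp0, Rplp1 and Rplp2. Rplp0 was at 2311, 1608 and 2252 CPM after nicotine and 2770, 2473 and 2187 CPM in controls. Rplp1 was at 2338, 1070 and 2453 CPM after nicotine and 2362, 2379 and 2171 CPM in controls. Rplp2 was at 290, 325 and 351 CPM after nicotine and 283, 296 and 351 CPM in controls, so the partners of 1 stalk differed in nicotine replicate 2, where Rplp1 was at 0.453, Rplp0 at 0.696 and Rplp2 at 1.10 of the median of the other 5 libraries. Rpsa, a small subunit protein also known as the laminin receptor, was at 2054, 1434 and 2198 CPM after nicotine and 2199, 2201 and 1857 CPM in controls. Rpl5 and Rpl11, which bind Mdm2 together with the smallest large subunit RNA when assembly fails, were at 0.778 and 0.455 of the other libraries' median there. Rpl5, Rpl11 and the other members outside the rule for naming were chosen after their values were seen.

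Other genes of the translation machinery are given by their counts and medians, and their difference from the members was not tested. Of 73 mitochondrial ribosomal protein genes tested, 0 passed an unadjusted p under 0.05. Their median log2 fold change was -0.065, and they summed to 2508 CPM in nicotine replicate 2 and to 3182 to 3501 in the other 5. That library was the lowest for 40 of the 73, with a median distance from the other libraries of -0.26 on the log2 scale. In this list Mrpl17 was at 177 CPM there and 136 to 172 CPM elsewhere, while Mrpl13 was at 47.8 CPM there and 107 to 137 CPM elsewhere. Mrps14 had the smallest p (log2 fold change -0.30, unadjusted p = 0.0974 from edgeR).

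Of 4 ribosomal protein genes outside the symbol rule, among them Fau, the scaffold Rack1 and Rpl36al, 0 passed. Rack1 was at 858 CPM in nicotine replicate 2 and 819 to 1063 CPM elsewhere, whereas Rpl36al was at 214 CPM there and 400 to 440 CPM elsewhere. Fau was at 565 CPM there and 602 to 784 CPM elsewhere. The median distance of the 4 in that library was -0.37.

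Of 23 tested translation genes with a known oligopyrimidine tract that are not ribosomal proteins, 0 passed, with a median log2 fold change of -0.042. The elongation factor Eef1a1 was at 7731 CPM in nicotine replicate 2, and its lowest level was 7424 CPM in control replicate 3. Tpt1, the translationally controlled tumour protein, was at 2251 CPM in nicotine replicate 2 and 2881 to 4334 CPM elsewhere. The smallest p was that of the initiation factor subunit Eif3m (log2 fold change -0.22, unadjusted p = 0.167 from edgeR). This list's median distance of nicotine replicate 2 from the other libraries was -0.088, against -0.58 for the members.

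Genes that build ribosomes had a median near 0. Of 47 ribosome assembly and RNA polymerase I genes, 0 passed, with a median log2 fold change of 0.057 and a summed level of 2265 CPM in nicotine replicate 2 and 2088 to 2371 CPM in the others. The nucleolar proteins Npm1 and Ncl were at 348 and 306 CPM in that library, within their ranges of 310 to 369 and 258 to 335 CPM elsewhere. Dkc1, the pseudouridine synthase, had the smallest p (log2 fold change 0.29, unadjusted p = 0.0931 from edgeR). Of 25 regulators of ribosomal protein mRNA, 1 passed the unadjusted threshold, Tsc2, an inhibitor of mTORC1, at a log2 fold change of 0.38 (SE 0.17, adjusted p = 0.808 from edgeR). In this list the RNA-binding protein Cnbp and the mTORC1 activator Rheb were at 463 and 153 CPM in nicotine replicate 2 and at least 616 and 201 CPM elsewhere. Of 15 ribosome rescue and quality control genes, 1 passed, the ubiquitin ligase Huwe1, at a log2 fold change of 0.34 (SE 0.15, adjusted p = 0.808 from edgeR). Rnf10, which ubiquitinates small subunit proteins of stalled ribosomes, was at 159 CPM in nicotine replicate 2 and 142 to 193 CPM elsewhere.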

How the data were processed

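RNA of 6 pituitary glands was made into strand-specific, paired-end libraries. Per the labels and the study's methods, the authors mapped reads to rn7 with HISAT2 2.1.0 and deposited whole-number counts per gene symbol from featureCounts with the UCSC ncbiRefSeq annotation. The strand and pair settings, and how multi-mapping reads were treated, are not given in the sources used here. Ribosomal protein genes have many near-identical copies, so their counts depend on that handling.

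Counts were analysed in R 4.3.3 with edgeR 4.0.16 (filterByExpr, TMM, quasi-likelihood test without a covariate, Benjamini-Hochberg adjustment over the 17292 genes tested), limma 3.58.1 and DESeq2 1.42.0, with depth between 28318383 and 85977002 counts per library. Calls needed an adjusted p below 0.1 together with a change of more than 1.5 times. The procedure was tested on simulated counts. SDs are over 3 rats, and distances use log2 CPM with a prior count of 2. The members and lists were chosen with earlier results of these data known.

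The rule for named genes took the 6 members with the highest CPM (no transcript lengths were used here), the 5 with the smallest unadjusted p in each direction, the paralog pairs, Rplp0, Rplp1, Rplp2 and Rpsa, and of each companion list the pair with the highest CPM and the gene with the smallest p. A further 9 rows of related symbols (pseudogenes and copies) were left out by the symbol rule and held 0.0930% to 0.155% of the counts. Rpl37a was not analysed here, and some other genes enter the counts and medians but are not reported here by name. Start windows came from RefSeq on GRCr8. Alternatives were DESeq2, RLE, library sizes alone, other filters, the older edgeR fit, voom with sample quality weights, thinning, leaving out the 5 genes over 1% of counts, a stricter adjusted p of 0.05, calls without a fold threshold, a replicate block, and each library removed in turn. Leaving out nicotine replicate 2 and control replicate 3 together was added after the data were seen.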

Additional observations from a re-analysis of the deposited data

How the results depend on the processing

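No ribosomal protein gene was called under any of the alternatives run, nor with an adjusted p under 0.05 or any fold change. Calls over all genes, 0 by edgeR with 1062 genes at an unadjusted p under 0.05, were 61 with DESeq2, 1 with library sizes alone, 2 without a filter, 1 with voom and sample quality weights, and 0 to 9 with 1 library left out. The number of members at an unadjusted p under 0.05, 1 with all libraries, was 0 to 3 with 1 library left out. It was 0 of 89 without control replicate 1, against 3.82% of all genes. It was 2 of 90 without nicotine replicate 1, against 9.07%. Without nicotine replicate 3 it was 3 of 90 (Rpl31l4, Rpl22l2 and Rps12l3), against 7.13%. The difference in the share of counts moved by less than the pooled spread between replicates. Nicotine replicate 2 itself widens that spread (SD 2.11 after nicotine and 0.455 in controls), so this comparison says little. The difference changed sign, from -1.14 to 0.074 percentage points, without nicotine replicate 2. The number of members whose groups do not overlap, 2 higher and 4 lower, was 2 and 2 with library sizes alone and 1 to 2 and 5 under the other scalings. The shares over all genes were 6.12% and 5.14% in the main scaling and are not given for the others. Of the 10 members with the smallest p, 0 changed direction in the 100 comparisons that kept all libraries, and 1 did in the 60 that left out 1. That was Rpl36, at -0.055 on the log2 scale without control replicate 3 and up to 0.38 without control replicate 2. Rpl7a was at -0.049 with nicotine replicate 2 and control replicate 3 both left out. The correction for transcript length was not run.

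Nothing in the labels says that equal replicate numbers mark shared litters or batches, and the data give no sign of pairing. Correlations of same-numbered samples' deviations were 0.0264, -0.198 and -0.0785. With the replicate block, 2 genes were called over all genes. In that fit 2 of 89 members (Rpl37 and Rpl22l1) had an unadjusted p under 0.05, against 5.21% of all genes.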

Other observations

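Rows that the symbol rule left out as copies behaved unevenly too. Rpl35al1, a copy named for Rpl35a, was at 173, 62.5 and 175 CPM after nicotine and 179, 204 and 124 CPM in controls, and so was low in nicotine replicate 2. Rpl27-l1 was at 35.9, 16.0 and 30.7 CPM after nicotine and 33.3, 32.1 and 15.5 CPM in controls, low in nicotine replicate 2 and control replicate 3, while Rpl27 was at 0.554 and 0.769 of the other libraries' median in these libraries. Rps15al4 was at 35.6, 22.4 and 43.5 CPM after nicotine and 38.5, 44.8 and 30.3 CPM in controls. These rows were named after their values were seen.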
